A study of Homo sapiens and Mus musculus with 34 samples.

Results

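EIF5 and 9 other genes of translation initiation were followed on 24 human transcriptome arrays of neuroblastoma cells treated with CYC065, an inhibitor of cyclin-dependent kinases that include CDK9. The 10 genes are EIF1, EIF1B, EIF5, EIF5B, EIF2S1, EIF4A1, EIF4A2, EIF4E, EIF4G1 and EIF4G2, of 31044 genes that could be named on these arrays. They were chosen by symbol, with earlier results of these data known, so their ranks and tests are not independent of that choice. The array rows carry no symbol, so a row was named where its mean level and its mean change in the lines BE2C and SHSY5Y equalled the values that the authors' deposited table gives for that symbol, within 1e-07. All 10 symbols were found, EIF4A2 and EIF4G1 on 2 rows each, of which the brighter was used, and the other 8 on 1 row. Because the naming used the BE2C and SHSY5Y values, the 10 genes are described in those lines without a test. Tests were made in Kelly and SKNAS, whose arrays took no part in the naming.

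Translation of most mRNAs starts when a small ribosomal subunit, carrying the initiator tRNA on the GTP-binding factor eIF2, is brought to the capped end of the mRNA and scans to a start codon. eIF4E binds the cap, eIF4G is the scaffold that joins it to the ribosome, and eIF4A is the helicase that unwinds the leader. eIF1 guards against starting at a wrong codon, eIF5 makes eIF2 hydrolyse its GTP once the start codon is found, and eIF5B joins the large subunit. CDK9 releases RNA polymerase II from its pause near the start of genes, so that short-lived transcripts are the first to decline when it is inhibited.

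The lines were Kelly, SKNAS, BE2C and SHSY5Y, each with 3 arrays of untreated cells and 3 of cells exposed to CYC065 for 1 h. The dose was 1 µM in Kelly, BE2C (BE(2)C in the labels) and SHSY5Y (SH-SY-5Y), whereas that of SKNAS is 1 µM by its sample labels but 5 µM by the treatment protocol. The controls are called untreated in the sample labels and DMSO-treated in the design text, which speaks of 3 biological replicates, and each group is 1 established line grown in culture. Kelly and SKNAS belong to an earlier deposit than BE2C and SHSY5Y, so levels are not compared between these pairs of lines. Mouse tumour arrays of the series are not analysed here. Replicate arrays correlated at r of 0.994 to 0.999 across genes, and the number of arrays limits the precision. The adrenergic neuroblastoma markers GATA3, HAND2, TH and DBH lay above the median of all named genes in every line, with 6 of 6 mesenchymal markers in SKNAS against 3, 4 and 3 in Kelly, BE2C and SHSY5Y. None of 3 endothelial markers did, and 1 of 3 epithelial markers (KRT19), with the same counts in treated cells. Values below are log2 levels as deposited, changes are treated minus untreated with a moderated standard error, and a call means an adjusted p under 0.05 in limma (Benjamini-Hochberg over all 31044 genes), whatever the fold.

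Promoters of the 10 genes were read from RefSeq (GRCh38.p14), and all 10 symbols matched. Those of EIF5, EIF4A1, EIF4A2 and EIF1 are shown because the first 3 genes fell in at least 1 tested line, and EIF1, the partner of eIF5 in start codon selection, was not called. Each is the 250 bases before the gene's outermost listed start, 5′ to 3′ on the gene's own strand, with capitals where a searched motif matched on either strand.
EIF5, chr14:103333987-103334236, plus strand: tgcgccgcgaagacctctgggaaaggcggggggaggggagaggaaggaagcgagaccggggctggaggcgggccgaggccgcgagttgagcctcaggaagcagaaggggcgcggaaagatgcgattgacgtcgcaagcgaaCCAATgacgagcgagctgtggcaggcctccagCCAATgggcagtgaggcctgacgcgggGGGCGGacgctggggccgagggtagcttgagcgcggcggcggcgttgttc
EIF4A1, chr17:7572575-7572824, plus strand: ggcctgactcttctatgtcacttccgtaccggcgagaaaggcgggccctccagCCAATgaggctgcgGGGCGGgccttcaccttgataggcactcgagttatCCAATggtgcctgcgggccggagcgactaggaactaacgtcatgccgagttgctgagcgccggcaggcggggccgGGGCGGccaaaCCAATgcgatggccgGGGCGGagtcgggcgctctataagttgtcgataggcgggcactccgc
EIF4A2, chr3:186783327-186783576, plus strand: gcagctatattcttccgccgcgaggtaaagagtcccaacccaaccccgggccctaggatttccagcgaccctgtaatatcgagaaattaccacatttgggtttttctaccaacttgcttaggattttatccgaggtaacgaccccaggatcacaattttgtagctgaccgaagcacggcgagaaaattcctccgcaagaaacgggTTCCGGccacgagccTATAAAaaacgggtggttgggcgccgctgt
EIF1, chr17:41688635-41688884, plus strand: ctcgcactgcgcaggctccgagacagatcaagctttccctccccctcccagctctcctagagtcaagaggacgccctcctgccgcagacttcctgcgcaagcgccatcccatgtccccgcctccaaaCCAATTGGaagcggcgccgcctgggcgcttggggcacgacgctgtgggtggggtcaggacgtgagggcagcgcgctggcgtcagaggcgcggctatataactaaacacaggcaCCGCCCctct
The motifs searched on both strands were the E-box CACGTG, the CCAAT box CCAAT, the TATA box TATAAA, the GC box GGGCGG, an AP-1 site TGANTCA, the ETS core CCGGAA and the YY1 core CCATNTT. Of 34943 promoters of the same length, 6.3% held the E-box, 32.0% CCAAT, 10.8% TATAAA, 42.5% the GC box, 6.6% the AP-1 site, 14.5% the ETS core and 11.6% the YY1 core. EIF5 held 2 CCAAT boxes, with first bases at -109 and -77 from the start, and a GC box at -50. EIF4A1 held 3 CCAAT and 3 GC boxes. EIF4A2 held neither, but TATAAA at -30 and an ETS core at -45, and its GC content was 51.6%, against 69.2% for EIF5 and a median of 58.0% over all promoters. EIF1 held 2 overlapping CCAAT matches, on opposite strands, and a GC box. A match describes letters in these windows and does not show that a factor binds there.

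EIF5, whose product triggers GTP hydrolysis on eIF2 at the start codon, was the only 1 of the 10 genes that was lower by more than 2-fold, and it was so in every line. The gene spans chr14:103334237-103345025 in GRCh38.p14 and holds the small nucleolar RNA gene SNORA28 in its span. It also overlaps EIF5-DT, a divergent transcript. In Kelly, EIF5 stood at 9.58, 9.44 and 9.59 on the untreated arrays and at 8.37, 8.33 and 8.44 on the treated ones, a fall by 1.15 ± 0.06 (SE, 3 arrays against 3), or 2.23-fold (adjusted p = 1.50e-05 in limma). In SKNAS it stood at 9.91, 9.90 and 9.91 untreated and at 8.26, 8.40 and 8.37 treated, a fall by 1.56 ± 0.06, or 2.95-fold (adjusted p = 5.66e-06 in limma). The treated arrays lay below the untreated ones in both lines, without overlap. This gap was also seen in the later deposit. In BE2C, EIF5 was 9.68, 9.74 and 9.77 untreated and 8.27, 8.34 and 8.28 treated, a change of -1.44 ± 0.05. In SHSY5Y it was 9.24, 9.22 and 9.21 untreated and 7.69, 7.76 and 7.79 treated, a change of -1.48 ± 0.07. Again no treated array reached an untreated one. On bulk arrays, less RNA per cell and fewer cells that express the gene cannot be told apart.

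**Figure D1:**
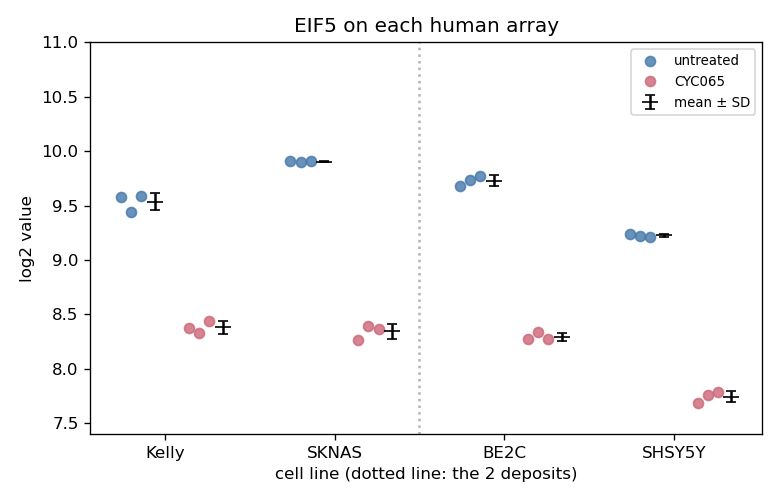
Log2 value of EIF5 (y axis) on each of the 24 human arrays by cell line (x axis), untreated and CYC065-treated, with the mean ± SD of 3 arrays beside each group. The dotted line parts the earlier deposit from the later one. Every treated array lies below every untreated array of its line, at 8.44 or lower against 9.21 or higher.

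EIF5 was among the genes with the largest declines of the whole array. Only 215 of the 31044 named genes had a lower change in Kelly, 22 in SKNAS, 6 in BE2C and 24 in SHSY5Y. The ranks in BE2C and SHSY5Y are descriptions only, since the naming used these lines. The other 9 initiation genes ranged from -0.44 to 0.01 in Kelly, from -0.74 to 0.02 in SKNAS, from -0.35 to 0.06 in BE2C and from -0.35 to 0.16 in SHSY5Y. The median change of the 10 was -0.12, -0.02, -0.12 and -0.05 in these lines, beside 0.07, 0.03, 0.01 and 0.02 for all named genes.

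In Kelly, 3 of the 10 genes fell (EIF5, EIF4A2 and EIF4A1) and none rose, where 11.6% of all genes were called lower and 9.53% higher. In SKNAS, 2 fell (EIF5 and EIF4A2) and none rose, where 4.91% of all genes were called lower and 1.46% higher. The same fit called 2 lower in BE2C (EIF5 and EIF4A2), where 3.32% of genes were called lower and 0.741% higher, and 1 lower in SHSY5Y (EIF5), where 4.29% and 0.438% were. Nothing is read from the counts in BE2C and SHSY5Y, since the naming used these lines. All 3 treated arrays lay below all 3 untreated ones for 7 of the 10 genes in Kelly, 3 in SKNAS, 6 in BE2C and 2 in SHSY5Y, while 16.1%, 11.3%, 12.9% and 10.6% of all genes did so.

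**Figure D2:**
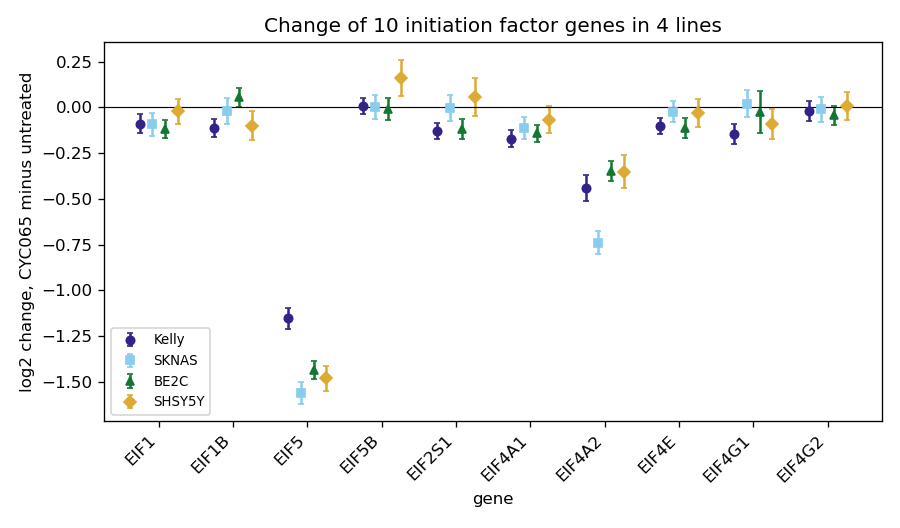
Log2 change, CYC065 minus untreated (y axis), of the 10 initiation factor genes (x axis) in the 4 lines. Points are differences of the means of 3 arrays each and bars are moderated standard errors. EIF5 lies at -1.15 to -1.56 and EIF4A2 at -0.35 to -0.74, and the other 8 genes lie between -0.17 and 0.16.

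The other factors of start codon selection stayed near their untreated levels. EIF1, whose product keeps the scanning ribosome open, stood at 9.047, 9.039 and 8.973 in untreated Kelly cells and at 8.997, 8.869 and 8.923 in treated ones, a change of -0.09 ± 0.05 (adjusted p = 0.241). The groups overlapped there and in SKNAS, where the change was -0.09 ± 0.06 (adjusted p = 0.491). In BE2C and SHSY5Y, EIF1 differed by -0.12 ± 0.05 and -0.02 ± 0.07. The 95% interval of the change ran from -0.21 to 0.03 in Kelly and from -0.24 to 0.05 in SKNAS, so a decline like that of EIF5 lay outside it. EIF1B, a near copy of EIF1 on chromosome 3, changed by -0.11 ± 0.05 in Kelly (adjusted p = 0.145) and by -0.02 ± 0.07 in SKNAS (adjusted p = 0.910). Its Kelly arrays did not overlap, at 7.10 to 7.20 untreated and 7.04 to 7.09 treated. In BE2C and SHSY5Y, EIF1B differed by 0.06 ± 0.05 and -0.10 ± 0.08. Where probes of such close copies share sequence their signals may mix, which was not tested.

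EIF2S1 encodes the alpha subunit of eIF2, the site whose phosphorylation slows initiation under stress. It stood at 8.981, 8.967 and 9.004 in untreated Kelly cells and at 8.868, 8.830 and 8.862 in treated ones, a change of -0.13 ± 0.04 that missed the threshold (adjusted p = 0.0698, or 0.0288 with dim genes left out), although the groups did not overlap. In SKNAS it changed by 0.00 ± 0.07 (adjusted p = 0.992), with untreated arrays at 9.50 to 9.68 and treated ones at 9.51 to 9.64. EIF5B encodes the GTPase of subunit joining, a different factor from eIF5 despite the similar name. EIF5B changed by 0.01 ± 0.04 in Kelly (adjusted p = 0.909) and by 0.00 ± 0.07 in SKNAS (adjusted p = 0.983). Its 95% interval ran from -0.09 to 0.11 in Kelly and from -0.15 to 0.15 in SKNAS. In BE2C, EIF2S1 differed by -0.12 ± 0.05 and EIF5B by -0.01 ± 0.06. In SHSY5Y, EIF2S1 differed by 0.06 ± 0.10 and EIF5B by 0.16 ± 0.10, where 1 untreated array stood low, at 8.07 against 8.40 and 8.41 for EIF2S1 and at 8.21 against 8.58 and 8.49 for EIF5B. Without that array the EIF5B difference was 0.06 and that of EIF2S1 was -0.06.

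EIF4A2, the second cytoplasmic eIF4A helicase gene, fell in both tested lines. In Kelly it stood at 8.28, 8.26 and 8.25 untreated and at 7.83, 7.68 and 7.95 treated, a fall by 0.44 ± 0.07, or 1.36-fold (adjusted p = 0.00391). In SKNAS it stood at 7.635, 7.728 and 7.662 untreated and at 6.888, 7.001 and 6.916 treated, a fall by 0.74 ± 0.06, or 1.67-fold (adjusted p = 0.000144). The groups did not overlap in either line. In BE2C, EIF4A2 was 7.89, 7.82 and 7.83 untreated and 7.44, 7.52 and 7.53 treated, a difference of -0.35 ± 0.05. In SHSY5Y it was 7.48, 7.49 and 7.29 untreated and 7.19, 7.05 and 6.96 treated, a difference of -0.35 ± 0.09. The treated arrays were again the lower ones, with 1 untreated SHSY5Y array close to them.

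These values come from the brighter of the 2 EIF4A2 rows. The dimmer row stood at 3.84 to 4.77 over all arrays, below the array medians of 5.34 to 5.67, and showed no such fall, with changes of -0.06 in Kelly (adjusted p = 0.655) and -0.20 in SKNAS (adjusted p = 0.268), and of 0.19 in BE2C and 0.16 in SHSY5Y. The authors' deposited table averages both rows and gives -0.08 in BE2C and -0.09 in SHSY5Y. Which transcripts each row measures is not given in the sources used here. EIF4A2 spans chr3:186783577-186789897 and holds small nucleolar RNA genes and MIR1248.

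EIF4A1, the helicase gene that resembles EIF4A2 most, moved far less. In Kelly it stood at 9.76, 9.71 and 9.70 untreated and at 9.57, 9.52 and 9.58 treated, a fall by 0.17 ± 0.05, or 1.13-fold (adjusted p = 0.0358). That call was lost in 5 of 6 fits that left out 1 array, at adjusted p of 0.0713 to 0.131, and was 0.0473 without treated array 6. With all rows of the array tested it was 0.0754. In SKNAS the change was -0.11 ± 0.06 (adjusted p = 0.380), with untreated arrays at 9.38, 9.43 and 9.41 and treated ones at 9.32, 9.35 and 9.22, which did not overlap. EIF4A1 differed by -0.14 ± 0.05 in BE2C and by -0.07 ± 0.07 in SHSY5Y. The gene, at chr17:7572825-7579006, overlaps the readthrough transcript SENP3-EIF4A1 and holds SNORA48, SNORA67 and SNORD10, so part of its signal could come from the readthrough, which was not tested.

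**Figure D3:**
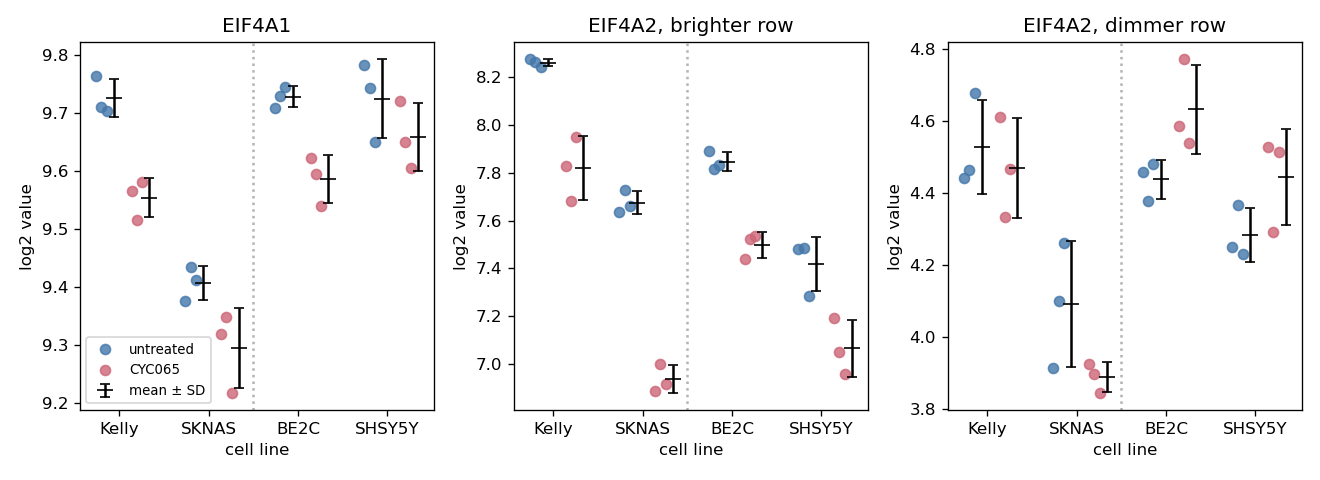
Log2 value (y axes, each with its own range) of EIF4A1 and of the brighter and the dimmer EIF4A2 row on each array, by cell line (x axis), with the mean ± SD of 3 arrays. The brighter EIF4A2 row is lower on every treated array of each line, whereas the groups of the dimmer row overlap in Kelly, SKNAS and SHSY5Y and its treated arrays are the higher ones in BE2C.

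The cap-binding protein gene EIF4E and the scaffold genes EIF4G1 and EIF4G2 were not called in Kelly or SKNAS in the values as deposited. EIF4E stood at 7.28 to 7.31 in untreated and 7.18 to 7.23 in treated Kelly cells, a change of -0.10 ± 0.04 (adjusted p = 0.134) between groups that did not overlap. In SKNAS it changed by -0.02 ± 0.06 (adjusted p = 0.878), and in BE2C and SHSY5Y it differed by -0.11 ± 0.05 and -0.03 ± 0.08. EIF4G1, the main eIF4G scaffold, changed by -0.14 ± 0.06 in Kelly (adjusted p = 0.102, or 0.0374 under quantile normalisation) and by 0.02 ± 0.07 in SKNAS (adjusted p = 0.912). Its second row gave -0.13 and -0.01, near the first. In BE2C and SHSY5Y, EIF4G1 differed by -0.02 ± 0.11 and -0.09 ± 0.08, and the untreated BE2C arrays spread from 10.7 to 11.1. EIF4G2, a relative that lacks the eIF4E-binding part and serves cap-independent initiation, changed by -0.02 ± 0.05 in Kelly (adjusted p = 0.817) and by -0.01 ± 0.07 in SKNAS (adjusted p = 0.953). It differed by -0.04 ± 0.05 in BE2C and by 0.01 ± 0.08 in SHSY5Y. The 95% interval of the EIF4G2 change stayed within -0.14 and 0.11 in Kelly and within -0.16 and 0.14 in SKNAS.

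The response was then compared between Kelly and SKNAS in 1 fit of their 12 arrays. EIF5 fell less in Kelly, by 1.15 against 1.56, a difference of 0.41 ± 0.08 (95% interval 0.23 to 0.58, adjusted p = 0.0127). In the values as deposited it was the only 1 of the 10 genes called, where 1.07% of all genes had a higher and 3.31% a lower change in Kelly than in SKNAS. The call was lost when each array was centred on its median (0.38, adjusted p = 0.0684). The protocol's dose for SKNAS was 5 µM and that for Kelly 1 µM, so line and dose cannot be told apart. The EIF5 levels after treatment lay close, at 8.33 to 8.44 in Kelly and 8.26 to 8.40 in SKNAS, while the untreated levels did not overlap. EIF4A2 also fell less in Kelly, by 0.44 against 0.74, but the difference of 0.30 ± 0.09 missed the threshold (adjusted p = 0.103). This difference was called in 4 of 19 other settings. These were quantile normalisation (adjusted p = 0.0329), dim genes left out (0.0434), array weights (0.0441) and omission of treated Kelly replicate 5 (0.0326). It was not called under median centring (adjusted p = 0.290), with all rows tested (0.178), on the dimmer row (0.682) or without any other single array. For the other 8 genes the difference lay between -0.17 and 0.00, with adjusted p of 0.423 to 0.994.

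Before treatment, 8 of the 10 genes differed between Kelly and SKNAS, 3 being lower and 5 higher in Kelly, where 40.1% of all genes did, 20.3% lower and 19.8% higher. EIF5 was 0.37 ± 0.06 lower in Kelly (adjusted p = 0.000118), EIF5B 0.66 ± 0.05 lower (9.32 against 9.98, adjusted p = 2.04e-07) and EIF2S1 0.58 ± 0.06 lower (8.98 against 9.56, adjusted p = 2.13e-06). Higher in Kelly were 5 genes, among them EIF1B by 0.68 ± 0.06 (7.17 against 6.48), EIF4G1 by 0.61 ± 0.06 (10.79 against 10.18) and EIF4A2 by 0.59 ± 0.06 (8.26 against 7.67), each with an adjusted p of at most 5.85e-06. EIF4E was 0.54 ± 0.05 higher (adjusted p = 4.06e-07) and EIF4A1 0.32 ± 0.05 higher (adjusted p = 0.000126). EIF1, at 0.12 ± 0.05, and EIF4G2, at -0.12 ± 0.06, were not called (adjusted p = 0.116 and 0.127). Both were called under quantile normalisation.

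A further 72 measured genes of translation were set beside the 10. In Kelly, 11 of the 72 were called lower (15.3%, against 11.6% of all genes) and 4 higher (5.56%, against 9.53%). In SKNAS, 5 were called lower (6.94%, against 4.91%) and none higher, and these 5 fell in Kelly too. The shares lay near those of all genes. The same fit called 2 lower in BE2C (2.78%, against 3.32% of all genes) and 5 lower in SHSY5Y (6.94%, against 4.29%), with none higher in either, and nothing is read from the counts in these lines. The higher calls in Kelly depended on the scaling of the arrays, with 11 under quantile normalisation and 1 under median centring.

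The largest fall of the 72 genes in both tested lines was that of a regulator of eIF2. Of 11 measured genes of the exchange factor eIF2B and of the kinases and phosphatase regulators of eIF2, Kelly cells showed 5 falls and 1 rise and SKNAS cells 3 falls and no rise. For these and the lists that follow, the shares over all genes are again 11.6% lower and 9.53% higher in Kelly, and 4.91% and 1.46% in SKNAS. PPP1R15B, which brings protein phosphatase 1 to eIF2, fell by 1.80 ± 0.07 in Kelly (adjusted p = 6.43e-06) and by 1.05 ± 0.07 in SKNAS (adjusted p = 3.80e-05). The PPP1R15B call held in all 14 other settings of each line, at adjusted p up to 0.0408 in Kelly and 0.00112 in SKNAS. The fall of PPP1R15B was larger in Kelly, by -0.75 ± 0.10 (adjusted p = 0.00101), the opposite order to that of EIF5. In BE2C and SHSY5Y, PPP1R15B differed by -0.72 ± 0.05 and -2.30 ± 0.10. PPP1R15A, its stress-induced relative, fell by 0.59 ± 0.06 and 0.47 ± 0.06 in Kelly and SKNAS, and EIF2AK3, the eIF2 kinase PERK of the endoplasmic reticulum, by 0.67 ± 0.05 and 0.49 ± 0.07. EIF2B4, a subunit of eIF2B, fell by 0.31 ± 0.05 in Kelly (adjusted p = 0.00442) and changed by -0.20 ± 0.06 in SKNAS (adjusted p = 0.0975).

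A list of 13 other genes was headed ternary complex and start site selection, but it also held EIF5A, EIF5A2 and EIF6. Of these 13, 2 were called lower (EIF1AD and EIF5A2) and 1 higher in Kelly, and 1 lower in SKNAS (EIF1AD). EIF1AD, which encodes a protein related to eIF1A, fell by 1.23 ± 0.07 in Kelly (adjusted p = 2.00e-05) and by 0.95 ± 0.07 in SKNAS (adjusted p = 6.53e-05), and it differed by -0.65 ± 0.10 in BE2C and -1.18 ± 0.08 in SHSY5Y. EIF5A2, a copy of the elongation factor gene EIF5A, fell by 0.35 ± 0.05 in Kelly (adjusted p = 0.00177) and changed by 0.04 ± 0.07 in SKNAS, a difference of -0.39 ± 0.09 (adjusted p = 0.0232). BZW2, an eIF5-mimic protein gene, rose by 0.20 ± 0.05 in Kelly (adjusted p = 0.0188), but the call was lost in 4 of 6 fits that left out 1 array, under median centring and on the dimmer of its rows. Of 17 measured eIF4F, cap and poly(A) genes, Kelly had 3 falls and 1 rise and SKNAS 1 fall. EIF4ENIF1, which carries eIF4E into the nucleus and to silenced mRNAs, fell by 0.72 ± 0.06 and 0.38 ± 0.06, with adjusted p of 0.000152 and 0.00705, on the brighter of its rows. On the dimmer row it was not called in either line (adjusted p = 0.270 and 0.648).

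The remaining calls in Kelly were small. EIF4A3, the helicase of the exon junction complex, fell by 0.22 ± 0.05 and PAIP1, a partner of the poly(A)-binding protein, by 0.19 ± 0.05, and EIF4E3, a cap-binding relative of EIF4E, rose by 0.18 ± 0.05. These calls were lost in 4, 4 and 5 of 6 fits that left out 1 array. Among 13 subunits of eIF3, the scaffold on the small ribosomal subunit, EIF3A alone was called, a fall by 0.21 ± 0.05 in Kelly (adjusted p = 0.0156), lost in 1 such fit, and none was called in SKNAS. Their median change was 0.04 in both lines. Of 18 elongation, termination and recycling factors, GFM2, a mitochondrial recycling factor, rose by 0.16 ± 0.04 in Kelly (adjusted p = 0.0451), a call lost in all 6 such fits, and none was called in SKNAS.

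**Figure D4:**
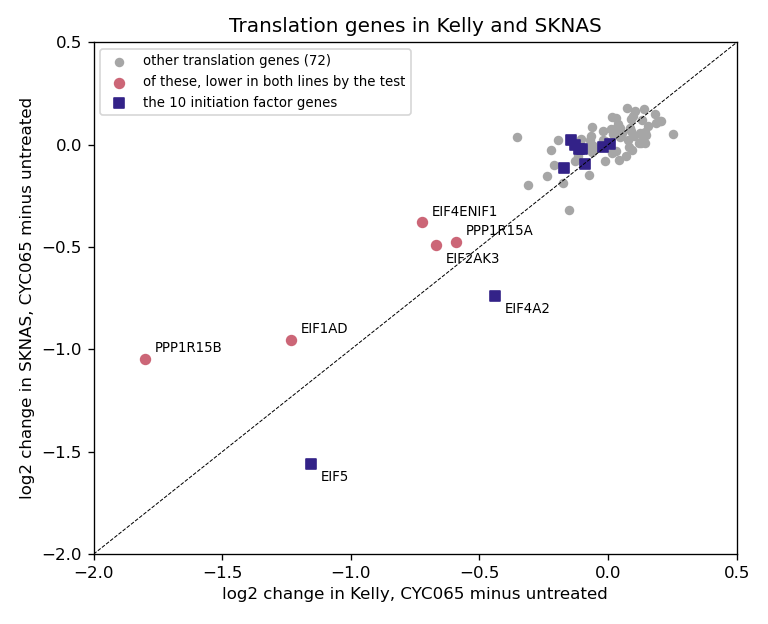
Log2 change, CYC065 minus untreated, in Kelly (x axis) and SKNAS (y axis) of 72 translation genes (circles) and of the 10 initiation factor genes (squares). Each point is 1 gene, filled red where a circle was called lower in both lines, and the dashed line marks equal change. EIF5 and EIF4A2 lie below that line, PPP1R15B, EIF1AD, EIF4ENIF1, EIF2AK3 and PPP1R15A above it.

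Small nucleolar RNAs are cut from introns of several of these genes and so share their transcription. Those listed were chosen as known to lie in introns of the initiation genes. All 10 lay in the span of 1 of these genes in GRCh38.p14, as the choice implies, and 5 were measured. SNORD66, within EIF4G1, fell by 0.78 ± 0.17 in Kelly (adjusted p = 0.0174), a call lost in 2 of 6 fits that left out 1 array, and by 0.40 ± 0.07 in SKNAS (adjusted p = 0.00691), a call lost with the spread shared over 24 arrays (adjusted p = 0.0670). Its SKNAS arrays, at 4.70 to 5.23, and its treated Kelly arrays, at 4.68 to 5.32, lay below the array medians. The untreated Kelly arrays, at 5.52 to 5.94, lay a little above theirs of 5.36 to 5.40. SNORD66 differed by -0.26 ± 0.09 in BE2C and 0.05 ± 0.10 in SHSY5Y. Its host EIF4G1 was not called in Kelly or SKNAS. SNORA48, within EIF4A1, rose by 0.34 ± 0.07 in Kelly (adjusted p = 0.0119) and by 0.34 ± 0.08 in SKNAS (adjusted p = 0.0342), and it differed by 0.29 ± 0.11 in BE2C and 0.38 ± 0.08 in SHSY5Y. SNORD97, within EIF4G2, rose by 0.39 ± 0.07 in Kelly (adjusted p = 0.00599) and by 0.35 ± 0.09 in SKNAS (adjusted p = 0.0448), and it differed by 0.03 ± 0.11 in BE2C and 0.17 ± 0.08 in SHSY5Y. Both SKNAS rises were lost in 5 of 6 fits that left out 1 array, and on its dimmer row SNORD97 was not called in either line. SNORD10, also within EIF4A1, changed by 0.22 ± 0.08 and 0.30 ± 0.09 (adjusted p = 0.0781 and 0.0816). SNORA28, within EIF5, stood at 2.47 to 5.12 over all arrays, below their medians, and was not called.

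The genes most like EIF5 were sought by Pearson correlation over the 24 arrays after the mean of each line was subtracted. The 5 highest were NFKBIA (r = 0.993), an inhibitor of NF-kB, IFRD1 (0.986), the zinc finger gene ZNF792 (0.985), MIDN (0.984) and KANSL2 (0.982), a subunit of a histone acetylation complex. These points share 8 groups of 3 arrays, so any gene that is lower in treated cells of every line correlates highly. NFKBIA differed by -1.17 in Kelly, -1.64 in SKNAS, -1.53 in BE2C and -1.33 in SHSY5Y, beside -1.15, -1.56, -1.44 and -1.48 for EIF5. The differences of IFRD1 were -0.93, -0.95, -1.05 and -0.99. Among the initiation genes, EIF4A2 came nearest (r = 0.921, with 317 genes higher), followed by EIF4A1 (0.792) and EIF1 (0.666), and EIF5B was at -0.250. Where EIF5 held 2 CCAAT boxes and 1 GC box, KANSL2 held 2 CCAAT and 4 GC boxes and ZNF792 held 1 CCAAT and 3 GC boxes. NFKBIA, IFRD1 and MIDN held no CCAAT box, and NFKBIA held a TATA box and a GC box.

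**Figure D5:**
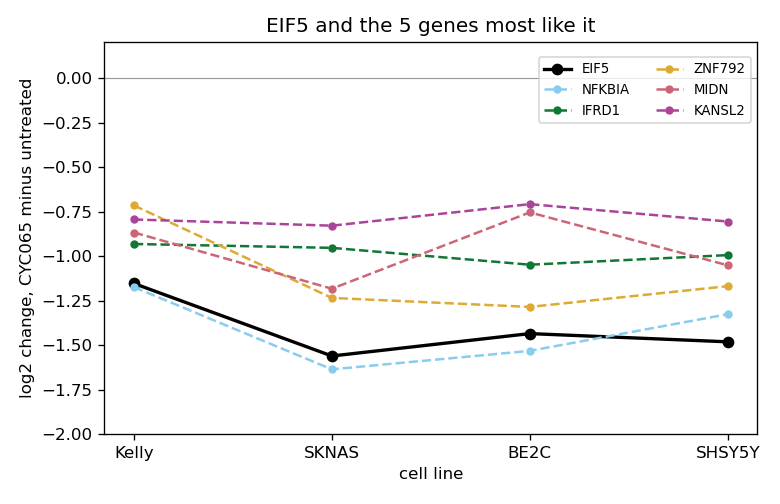
Log2 change, CYC065 minus untreated (y axis), of EIF5 and of the 5 genes with the highest correlation with it, by cell line (x axis). Points are differences of means of 3 arrays each and lines join the points of a gene. NFKBIA runs closest to EIF5, at -1.17 to -1.64, and the other 4 genes lie above EIF5 in every line.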

How the data were processed

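RNA of 24 human arrays was analysed, 3 per group. The deposited log2 values are the authors' RMA summaries; the submitters' processing notes name RMA, affy and limma without versions. RMA fits arrays to a common scale and can hide a global change of RNA content. The authors' deposited table holds, per symbol and for BE2C and SHSY5Y, the log2 change and mean level with raw and adjusted p-value columns, and served to name rows: 31044 of 33720 symbols (92.1%), 26740 on 1 row and 4304 on 2. The same search with values moved to other symbols gave 0 matches. The array's genome build is not given in the sources used here, and coordinates are those of GRCh38.p14. limma 3.58.1 (R 4.3.3) compared group means per line, and 4 groups for Kelly against SKNAS.

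The genes and lists were chosen with earlier results of these data known. Named besides the 10 were up to 4 called genes per list, those with the largest mean change over Kelly and SKNAS, and the 5 genes most correlated with EIF5. On simulated data with 31044 genes, 2-fold changes were recovered for 92% of genes with the spread of Kelly and 98% with that of SKNAS, and 1.25-fold changes for 32% and 30%. Only 50 genes were changed at each fold, far fewer than were called in Kelly or SKNAS, so recovery in the real data may differ. Replicate numbers of Kelly and SKNAS did not pair the arrays. Scaling, dim genes, row choice, array weights, shared spread, a minimum fold, the replicate number and single arrays were varied. Some cell type markers are not reported here.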

Additional observations from a re-analysis of the deposited data

Results flagged for a closer look

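The fall of EIF5 differed between Kelly and SKNAS by the test of the difference itself, the Kelly change minus the SKNAS change being 0.41 on the log2 scale, with each of the 3 treated arrays below each of the 3 untreated ones in both lines. The call was lost under median centring (0.38, adjusted p = 0.0684). The dose of SKNAS is given as 1 µM in 1 place and 5 µM in another, and its part in the difference was not tested.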

How the results depend on the processing

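The fall of EIF5 in Kelly and SKNAS kept its direction and its call in each of 14 settings a line, at -1.20 to -1.13 and -1.59 to -1.52 when single arrays were left out. The EIF5 change under the same omissions was -1.46 to -1.41 in BE2C and -1.50 to -1.45 in SHSY5Y. The difference between the Kelly and SKNAS changes of EIF5 was 0.36 to 0.43 without single arrays, but lost its call under median centring (0.38, adjusted p = 0.0684) and with a replicate block (0.41, adjusted p = 0.0548), and the untreated difference was -0.39 to -0.32.

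The count of the 10 genes changed was 2 to 3 in Kelly, 2 to 2 in SKNAS, 1 to 2 in BE2C and 1 to 2 in SHSY5Y without single arrays, 1 to 2 for the response difference and 8 to 8 for untreated cells. A second gene joined EIF5 in SHSY5Y without untreated replicate 3. In the response difference EIF4A2 joined EIF5 without treated Kelly replicate 5. BE2C had 1 call without any 1 of its 3 untreated replicates. In Kelly the count was also 4 under quantile normalisation and without dim genes, and 2 with all rows tested and with the dimmer row. The added gene was EIF4G1 under quantile normalisation (adjusted p = 0.0374) and EIF2S1 without dim genes (adjusted p = 0.0288). All Kelly calls numbered 7379 under quantile normalisation, 8773 with all rows tested and 6368 with the dimmer row. Without dim genes they numbered 6480 among genes above the median level only, a larger share of the tested genes than as deposited. With a fold of at least 1.5 required the count was 1 in Kelly and 1 in BE2C, and with the dimmer row it was 1 in SKNAS and 1 in BE2C. In SHSY5Y it was 2 without dim genes, with array weights and with a shared spread. Nothing is read from these counts in BE2C and SHSY5Y, since the naming used both lines. For the response difference the count was 2, EIF5 and EIF4A2, under quantile normalisation, without dim genes and with array weights, and 0 under median centring. The replicate block also gave 0 and changed no call of the untreated difference. All response calls numbered 1342 under quantile normalisation, 1670 with array weights and 994 under median centring. Without dim genes they numbered 1654 among genes above the median level. Same-numbered Kelly and SKNAS arrays did not deviate together (r from -0.20 to 0.11), so these numbers were not taken as pairs.

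Over all genes, 55% of Kelly calls were lower, against 46.8% under quantile normalisation and 71.7% under median centring. SHSY5Y calls numbered 1467, 4854 with array weights and 2817 with a shared spread, and BE2C calls 1260 and, with a shared spread, 2120. A fold of 1.5 left 1278 of 6572 calls in Kelly, 670 of 1976 in SKNAS, 333 in BE2C and 631 in SHSY5Y, and the response differences numbered 1358, or 719 in the blocked fit. Of the 72 translation genes, 15 were called in Kelly (9 without untreated replicate 1, 9 without untreated replicate 2, 26 without dim genes, 5 with the fold) and 5 in SKNAS (8 without dim genes, 10 with a shared spread, 2 with the fold). The setting without dim genes tested 71 of the 72, and all calls there numbered 6480 in Kelly and 2259 in SKNAS. Rows near background and 3 arrays a group limit changes under 1.5-fold. The causes of these shifts were not tested.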
